A study of Mus musculus with 24 samples.

Results

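Of the 9 genes chosen to represent adrenergic receptors and cAMP signalling 8 were present in the deposited count table of brown adipose tissue (BAT), and all 8 passed the filter on low counts. They were the rows whose Ensembl identifier belonged to the beta-adrenergic receptors Adrb3 and Adrb1, the alpha-adrenergic receptor Adra1a, the phosphodiesterases Pde3b and Pde4d, the protein kinase A (PKA) subunits Prkar2b and Prkaca, and the regulator of G protein signalling Rgs2, out of 12615 genes in all. The ninth gene, the adenylyl cyclase Adcy3, was not analysed here. The rows were matched by gene name and not by a measured value, but the genes were chosen with earlier results of these data known.

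In brown fat, noradrenaline released by sympathetic nerves in the cold binds beta-adrenergic receptors, which act through the stimulatory G protein to switch on adenylyl cyclase. The cAMP produced releases the catalytic subunits of PKA from their regulatory subunits, and PKA then drives lipolysis and, through CREB and related factors, the transcription of thermogenic genes such as Ucp1. Phosphodiesterases degrade cAMP, RGS proteins shorten G protein signalling, and alpha-1 receptors act through the Gq family instead.

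Each of the 24 libraries came from the BAT of 1 mouse, with 6 mice in each of 4 groups. All mice, controls included, carried TBLR1 fl/fl;TBL1 fl/fl alleles and received tamoxifen. Mice positive for Ucp1CreERT2, a tamoxifen-inducible Cre recombinase expressed from the Ucp1 promoter and therefore aimed at brown adipocytes and not at the other cells of the tissue, are called BATdKO, and mice negative for it are called Cre-. The labels give 4 days at 30°C for the warm groups, and 6 days at 8°C after steps of 18, 16 and 12°C for the cold groups, whereas the text of the study gives 3 days at 8°C. The temperatures began at least 3 weeks after the last injection. The labels give the age at injection in years and the study's methods in weeks, and they describe females where a legend of the study describes males, so neither age nor sex was used here. The kit reads each transcript once, close to its 3′ end, and the levels below are in CPM, which are tag counts scaled by the library size after edgeR's TMM correction. Libraries held between 699703 and 11527643 counts, and the shallowest was m4 of the Cre- group at 30°C.

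The genes targeted by the deletion went against the labels. Tbl1xr1, which encodes TBLR1, had a mean of 39.8 CPM in BATdKO against 20.9 CPM in Cre- at 8°C, as labelled, and Tbl1x one of 53.8 against 40.7 CPM. The ranges of Tbl1xr1 did not overlap (33.7 to 44.3 against 18.2 to 24.6 CPM), and those of Tbl1x did. For these differences at 8°C edgeR's test, described below, gave adjusted p = 0.00349 for Tbl1xr1 and 0.0633 for Tbl1x. At 30°C the library m6 labelled Cre- held 38.6 CPM of Tbl1xr1 and the library m6 labelled BATdKO held 17.0 CPM, each within the range of the other label. The sources used here do not give the position of the deleted exons, and 3′ tags from outside them would not report the deletion. Why the levels were higher under the BATdKO label was not tested, nor was an exchange of labels. The groups are therefore named by their labels throughout, every direction between genotypes is a direction between labelled groups, and the values without both m6 libraries are given where they change a call. The brown adipocyte markers, 10 of 10 in the table, all had counts in every library, and their summed share of the counts ranged from 0.079 to 0.446% in the Cre- group at 30°C, from 0.142 to 0.438% in BATdKO at 30°C, from 0.274 to 0.488% in Cre- at 8°C and from 0.305 to 0.512% in BATdKO at 8°C. The skeletal muscle list, 13 of 13 in the table, took 0.987% of the counts in m3 of Cre- at 30°C, which also had the lowest brown adipocyte share, and 0.000277 to 0.429% in the other libraries. Of that list, Acta1, Ckm and 10 others had no count in at least 1 library. The library names of warm and cold mice form separate number ranges, so an order of processing that they may follow cannot be told apart from temperature.

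The stretch before the transcription start is shown for the members that were called between temperatures and have a RefSeq entry, since these are the members whose transcript levels moved with temperature. The windows are from the RefSeq annotation of GRCm38.p6, on the strand of the gene and ending at the base before the start. Capitals mark TGACG or its reverse complement CGTCA, the core of the element that CREB binds.
Rgs2: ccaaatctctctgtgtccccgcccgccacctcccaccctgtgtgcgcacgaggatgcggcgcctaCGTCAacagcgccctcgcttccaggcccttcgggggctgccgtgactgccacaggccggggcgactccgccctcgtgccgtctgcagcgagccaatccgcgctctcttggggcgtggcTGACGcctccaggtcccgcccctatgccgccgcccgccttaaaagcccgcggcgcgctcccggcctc
Prkaca: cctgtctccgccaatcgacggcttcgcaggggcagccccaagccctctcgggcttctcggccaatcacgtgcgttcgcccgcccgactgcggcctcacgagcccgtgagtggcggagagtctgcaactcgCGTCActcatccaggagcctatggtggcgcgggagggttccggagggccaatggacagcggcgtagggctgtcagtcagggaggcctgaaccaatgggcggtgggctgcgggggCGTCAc
Pde4d: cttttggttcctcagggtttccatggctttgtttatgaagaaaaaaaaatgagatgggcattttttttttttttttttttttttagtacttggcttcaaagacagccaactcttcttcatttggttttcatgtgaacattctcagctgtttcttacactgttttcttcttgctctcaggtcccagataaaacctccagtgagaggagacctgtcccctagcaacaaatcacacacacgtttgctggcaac
The Rgs2 stretch (chr1:144004150-144004399, minus strand) held CGTCA 185 bases and TGACG 67 bases before the start. The Prkaca stretch (chr8:83972728-83972977, plus strand, the first of 2 RefSeq windows of the gene) held CGTCA at 120 and at 6 bases before the start, and the other window (chr8:83976633-83976932) held neither form. The Pde4d stretch (chr13:108653927-108654176, plus strand) held neither form, and begins within the gene as GENCODE draws it (chromosome 13, 108449948 to 109953461), which has several starts. In windows of 300 bases, 250 before and 50 after the start, 20.8% of 32851 RefSeq promoters held TGACG or CGTCA, and 1.79% held the full palindrome TGACGTCA, which overlaps both and which none of the member windows held. A match describes these letters and was not measured as a bound site. Adra1a, Adrb3 and Pde3b are not shown. Adrb1 and Prkar2b have windows but were not called between temperatures, and their letters are not printed. The Adrb1 window held TGACG 90 bases before the start, and the Prkar2b windows held neither form.

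Counts were compared with edgeR's quasi-likelihood test in a model holding all 24 libraries and a mean for each group, with p-values adjusted by Benjamini-Hochberg over the 12485 genes tested and a threshold of 0.1, and a gene past it is called changed. A log2 fold change of 1 is a doubling, and SE is its standard error. Between genotypes at 8°C, 2 of the 8 members were called, Adrb3 lower and Rgs2 higher in BATdKO, where 1.82% of all tested genes were called. Between 8°C and 30°C, 3 members were called in Cre- mice (Pde4d and Adra1a higher and Rgs2 lower in the cold, with 9.15% of all genes called) and 2 in BATdKO mice (Pde4d and Prkaca higher, with 7.07% of all genes called). Between genotypes at 30°C no member was called by edgeR, nor was any other gene (0%), whereas DESeq2 called 92 genes, none of them a member. At an unadjusted p under 0.05, 2 members stood apart there, Adra1a and Prkar2b, against 10.4% of all genes. For the interaction, which asks whether the genotype difference itself differed between the temperatures, edgeR called 0 members and 12 of all genes (0.0961%), while 3 members had an unadjusted p under 0.05 against 8.05% of all genes. The contrasts share groups, so that each Cre- value at 8°C enters both the genotype difference and the cold difference.

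**Figure D1:**
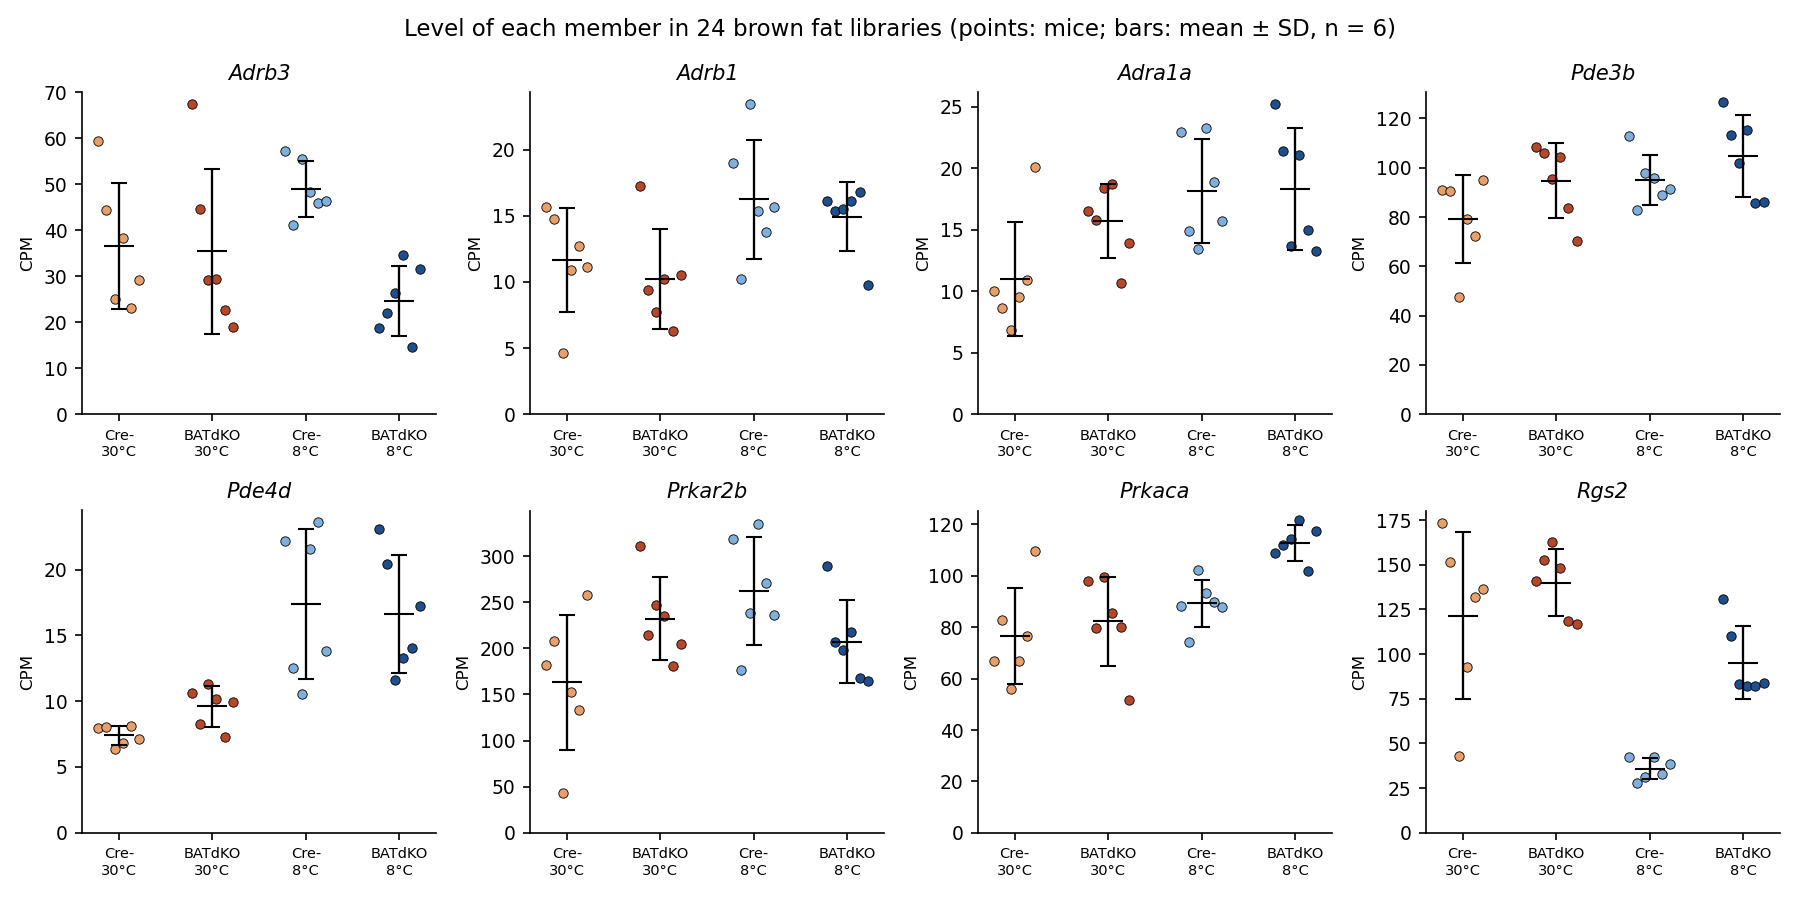
Level of each of the 8 members in CPM (vertical axis, from 0) in the 4 groups (horizontal axis), with a point per mouse and bars for the mean and SD of 6 mice. The 6 Cre- mice at 8°C sit at 28.1 to 42.4 CPM of Rgs2, below all 6 BATdKO mice at 8°C (82.0 to 131 CPM), and for Adrb3 the order of these 2 groups is the opposite.

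Adrb3 encodes the beta-adrenergic receptor most typical of adipocytes and was lower in BATdKO than in Cre- at 8°C. Its level was 41.1 CPM in the lowest, 47.3 at the median and 57.2 in the highest Cre- mouse at 8°C. In BATdKO mice at 8°C the corresponding levels were 14.6, 24.2 and 34.6 CPM. The highest BATdKO mouse lay below the lowest Cre- mouse, so the groups did not overlap, which held for 1.95% of all tested genes. Means were 24.7 ± 7.67 and 49.0 ± 6.13 CPM (SD, n = 6 each), a log2 fold change of -0.98 (SE 0.26, 95% interval -1.51 to -0.45, adjusted p = 0.0592 from edgeR). With all 24 libraries the call was close to the threshold. It held with DESeq2 (adjusted p = 0.0355) and in edgeR with library totals (adjusted p = 0.0281). In edgeR it also held without both m6 libraries at 30°C (adjusted p = 0.0262) and with only the libraries at 8°C (adjusted p = 0.00034). Of 24 fits without 1 mouse, 7 lost it, those without m1, m3 or m4 of Cre- or m1, m2, m3 or m5 of BATdKO at 8°C, with adjusted p between 0.0224 and 0.16 over the 24 fits, and with robust dispersion estimates (adjusted p = 0.137). In a bulk sample, fewer cells that carry a transcript and less of it per cell cannot be told apart.

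Some marker lists of other cells separated the labelled genotypes at 8°C, and others overlapped. The smooth muscle and pericyte list, 8 of 8 in the table, took 0.00284 to 0.00472% of the counts in Cre- and 0.00170 to 0.00269% in BATdKO, with no overlap. Of its genes, Acta2, Myh11, Des, Pdgfrb, Cspg4 and Notch3 had counts in every library, and Tagln and Cnn1 did not pass the filter on low counts. Medians at 8°C in Cre- and BATdKO were 6.77 and 1.96 CPM for Des and 8.04 and 4.60 CPM for Cspg4. They were 6.70 and 5.04 CPM for Acta2 and 7.22 and 5.76 CPM for Myh11. Which genes of the list set the separation was not tested. Over all libraries the highest shares of this list were in m3 and m1 of Cre- at 30°C (0.00924 and 0.00751%), which also had the highest skeletal muscle shares. The skeletal muscle share had a median of 0.0472% in Cre- (0.000404 to 0.156%) and 0.00508% in BATdKO (0.000277 to 0.0154%), with overlapping ranges. The endothelial share was 0.0161 to 0.0208% in Cre- and 0.0152 to 0.0184% in BATdKO. The macrophage and leukocyte share was 0.0147 to 0.0241% and 0.0158 to 0.0193%, and the stromal progenitor share 0.0151 to 0.0258% and 0.0131 to 0.0161%, in the same order. These ranges overlapped too. The part of any of these cells in the differences of Adrb3 and Rgs2 at 8°C was not tested.

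At 30°C the 2 genotypes had similar Adrb3 levels with a wide spread. Cre- mice ranged from 23.2 to 59.4 CPM with a median of 33.7, and BATdKO mice from 18.9 to 67.5 CPM with a median of 29.4. The log2 fold change between them was -0.05 (95% interval -0.57 to 0.47, adjusted p = 1.00 from edgeR). In the cold, the Cre- level was 1.34 times that at 30°C and the BATdKO level 0.701 times that at 30°C, and neither passed the threshold (adjusted p = 0.405 and 0.315 from edgeR). The interaction was -0.93 on the log2 scale (SE 0.36, unadjusted p = 0.0163, adjusted p = 0.497). By median the order of the groups was Cre- at 8°C, Cre- at 30°C, BATdKO at 30°C and BATdKO at 8°C, and each group overlapped its neighbour. Exons of Adrb3 (chromosome 8, 27225776 to 27250616, minus strand) overlap those of Gm45470 on the other strand, and since counting by strand is not stated, reads of the pair cannot be told apart. Gm45470 itself had a log2 fold change of -0.33 between genotypes at 8°C (SE 0.25, adjusted p = 0.775 from edgeR).

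Adrb1, the beta-1 receptor found on brown fat precursors and mature cells as well as in the heart, was not called in any comparison. It ranged from 4.59 to 15.7 CPM (median 11.9) in Cre- and from 6.27 to 17.3 CPM (median 9.81) in BATdKO at 30°C. In the cold, Cre- mice had 10.2 to 23.4 CPM (median 15.5) and BATdKO mice 9.78 to 16.8 CPM (median 15.8). Both medians at 8°C were above both medians at 30°C, and all 4 ranges overlapped. The cold difference was 0.45 on the log2 scale in Cre- (95% interval -0.03 to 0.92, adjusted p = 0.306) and 0.55 in BATdKO (95% interval 0.06 to 1.03, adjusted p = 0.216, both from edgeR). The genotype difference at 8°C was -0.11 (95% interval -0.58 to 0.35).

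Adra1a, a Gq-coupled receptor for noradrenaline, was higher in the cold in Cre- mice. It ranged from 6.89 to 20.1 CPM (median 9.78) in Cre- mice at 30°C and from 13.4 to 23.3 CPM (median 17.3) at 8°C. The overlap came from m6 of the warm group, at 20.1 CPM, as the other 5 warm mice did not exceed 10.9 CPM. The log2 fold change was 0.70 (SE 0.21, adjusted p = 0.0486 from edgeR). It was lost in 5 of the 24 fits without 1 mouse, which were those without m1, m2 or m3 of Cre- at 30°C and those without m1 or m4 of Cre- at 8°C, with adjusted p up to 0.141. It was also lost without both m3 and m4 of Cre- at 30°C (0.56, adjusted p = 0.176 from edgeR), and was 0.99 (adjusted p = 0.000844) without both m6 libraries at 30°C.

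In BATdKO mice Adra1a ranged from 10.7 to 18.8 CPM (median 16.2) at 30°C and from 13.3 to 25.3 CPM (median 18.0) at 8°C, a log2 difference of 0.20 (95% interval -0.23 to 0.62, adjusted p = 0.691 from edgeR). The genotypes at 8°C differed by -0.02 on the log2 scale (95% interval -0.44 to 0.40). At 30°C Adra1a stood at 0.48 higher in BATdKO (95% interval 0.04 to 0.92, adjusted p = 0.42), and at 0.81 (SE 0.19, adjusted p = 0.0216 from edgeR) without both m6 libraries, where 4% of all genes were called. Leaving out the Cre- m6 alone was enough for the call (adjusted p = 0.0283). This genotype difference at 30°C thus rested on which libraries were kept. The interaction was -0.50 (95% interval -1.11 to 0.11) with all libraries and -0.84 (adjusted p = 0.233) without both.

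**Figure D2:**
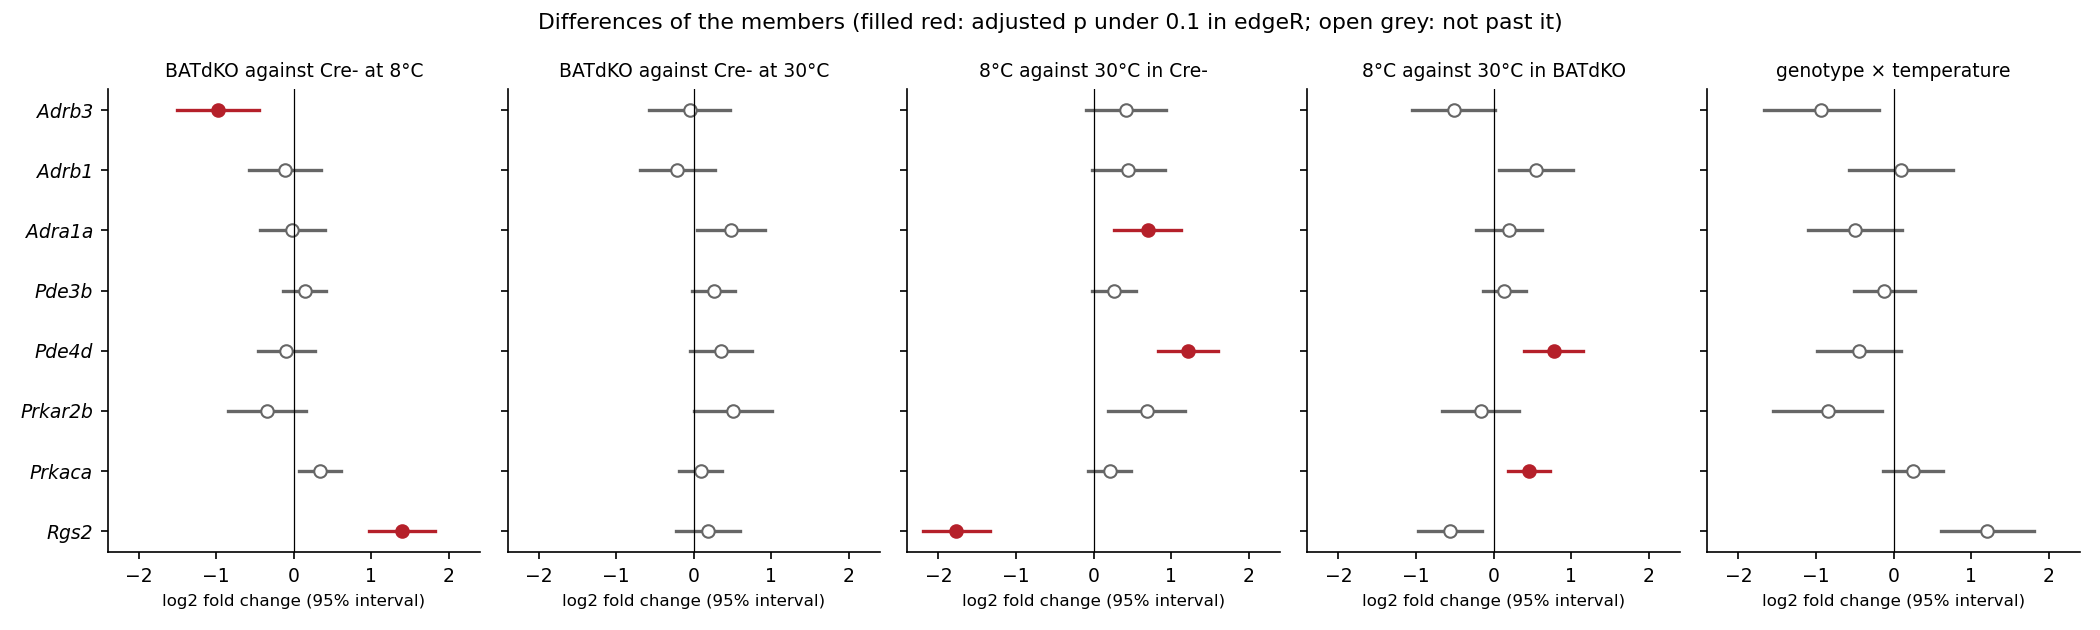
Log2 fold change with its 95% interval (horizontal axis) for each member (vertical axis) in 5 comparisons, red and filled where the adjusted p in edgeR was under 0.1. Rgs2 stands at 1.40 between genotypes at 8°C and at -1.77 between temperatures in Cre-, and Pde4d is the gene called between temperatures in both genotypes.

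Pde4d, which encodes a cAMP-specific phosphodiesterase that PKA itself activates, rose in the cold under both labels. It lay between 6.35 and 8.14 CPM in Cre- mice at 30°C (median 7.53) and between 10.6 and 23.6 CPM at 8°C (median 17.7). In BATdKO mice it lay between 7.28 and 11.3 CPM at 30°C (median 10.1) and between 11.6 and 23.1 CPM at 8°C (median 15.6). Every cold mouse lay above every warm mouse of its own label. Groups without overlap, in either direction, were found for 2.93% of all genes in Cre- and 2.99% in BATdKO. The log2 fold change was 1.22 in Cre- (SE 0.19, adjusted p = 8.97e-05) and 0.77 in BATdKO (SE 0.18, adjusted p = 0.0129, both from edgeR).

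Both calls of Pde4d held in all 24 fits without 1 mouse, with adjusted p up to 0.000455 and 0.0504, and without both m6 libraries at 30°C (adjusted p = 0.00028 and 0.022 from edgeR). The lower fold change under the BATdKO label was not separated from that under the Cre- label, with an interaction of -0.44 (95% interval -0.98 to 0.10, adjusted p = 0.685). Between genotypes at 8°C Pde4d differed by -0.10 on the log2 scale (95% interval -0.46 to 0.27). The gene is the longest of the members, and the tag counts report its 3′ end only, so its short and long isoforms were not resolved.

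Pde3b, the phosphodiesterase through which insulin curbs lipolysis in adipocytes, was not called in any comparison. Its lowest, median and highest levels were 47.4, 84.9 and 95.1 CPM in Cre- at 30°C and 70.3, 100.05 and 109 CPM in BATdKO at 30°C. At 8°C they were 83.0, 93.8 and 113 CPM in Cre- and 85.5, 107.7 and 127 CPM in BATdKO. All 4 groups overlapped, and the lowest value was that of m3 of Cre- at 30°C, the library with the large skeletal muscle share. The cold difference was 0.26 in Cre- (95% interval -0.02 to 0.54) and 0.14 in BATdKO (95% interval -0.14 to 0.42), and the genotype difference at 8°C was 0.14 (95% interval -0.14 to 0.42), all on the log2 scale. These intervals exclude a change of 1 in either direction.

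Prkar2b encodes the RII beta regulatory subunit, the main PKA regulatory subunit of adipose tissue, and its level varied most within the warm Cre- group. It ranged from 43.7 to 258 CPM in Cre- at 30°C (median 168) and from 181 to 311 CPM, with a median of 225, in BATdKO at 30°C. In the cold, Cre- mice had 176 to 335 CPM (median 255) and BATdKO mice 165 to 289 CPM (median 202). All groups overlapped. The cold difference in Cre- was 0.68 on the log2 scale (SE 0.24, adjusted p = 0.103 from edgeR) and missed the threshold, and in BATdKO it was -0.17 (95% interval -0.67 to 0.33).

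The values of Prkar2b turned on a few warm Cre- libraries. Its lowest library, at 43.7 CPM, was m3 with the large skeletal muscle share, and its highest, at 258 CPM, was m6. Without both m6 libraries at 30°C the cold difference in Cre- was 0.86 (SE 0.24, adjusted p = 0.0243 from edgeR, where 13.2% of all genes were called), and without m3 and the shallow m4 it was 0.43 (adjusted p = 0.24). It also passed without m2 or m6 of Cre- at 30°C, m6 of BATdKO at 30°C, m2 of Cre- at 8°C or m1 of BATdKO at 8°C, with adjusted p between 0.0268 and 0.23 over all 24 fits without 1 mouse. The part of the muscle transcripts in this result was not tested. The interaction was -0.85 (SE 0.34, unadjusted p = 0.02, adjusted p = 0.522 from edgeR), and the genotype differences were 0.50 at 30°C (unadjusted p = 0.0484, adjusted p = 0.476) and -0.35 at 8°C (95% interval -0.84 to 0.15).

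Prkaca, the alpha catalytic subunit of PKA, rose in the cold in BATdKO mice. It lay between 51.8 and 99.6 CPM at 30°C (median 82.7) and between 102 and 122 CPM at 8°C (median 113), and the groups did not overlap. The log2 fold change was 0.46 (SE 0.13, adjusted p = 0.0476 from edgeR). The call was lost without m2 or m6 of BATdKO at 30°C or m4 of BATdKO at 8°C, with adjusted p up to 0.106, and when libraries were scaled to their totals without TMM (0.27, adjusted p = 0.115). In Cre- mice Prkaca lay between 56.1 and 109.8 CPM at 30°C (median 71.7) and between 74.3 and 102 CPM at 8°C (median 89.0), a log2 difference of 0.21 (95% interval -0.07 to 0.48, adjusted p = 0.436).

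The highest warm Cre- value of Prkaca was that of m6 and the lowest warm BATdKO value was that of m6. Without these 2 libraries the cold difference was 0.34 in Cre- (adjusted p = 0.0216) and 0.35 in BATdKO (adjusted p = 0.0287), and both were called by edgeR. Between genotypes at 30°C Prkaca was at 0.09 (95% interval -0.18 to 0.37, adjusted p = 0.892) with all libraries and was called without these 2 (0.33, SE 0.098, adjusted p = 0.0715 from edgeR). The interaction was 0.25 with all libraries (95% interval -0.14 to 0.63) and 0.0040 without these 2. Between genotypes at 8°C Prkaca was 0.34 higher in BATdKO on the log2 scale (SE 0.13, adjusted p = 0.329), with overlapping groups. It passed the threshold when only the libraries at 8°C were fitted (adjusted p = 0.0111) or without both m6 libraries at 30°C (adjusted p = 0.0452, all from edgeR).

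Rgs2, which speeds the switching off of Gq and also restrains adenylyl cyclase, had the largest fold change of the members between genotypes at 8°C, between temperatures in Cre- and for the interaction, but not between genotypes at 30°C or between temperatures in BATdKO. In Cre- mice it lay between 42.8 and 173 CPM at 30°C (median 134) and between 28.1 and 42.4 CPM at 8°C (median 35.8). The groups did not overlap, although m3 at 30°C, at 42.8 CPM, came close to the highest cold mouse. The log2 fold change was -1.77 (SE 0.21, 95% interval -2.20 to -1.34, adjusted p = 2.43e-06 from edgeR), a cold level of 0.293 times the warm one. It was called in all 24 fits without 1 mouse, and was -2.04 (SE 0.14) without m3 and m4 of the warm group.

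In BATdKO mice Rgs2 lay between 117 and 163 CPM at 30°C (median 145) and between 82.0 and 131 CPM at 8°C (median 83.5), where 4 of the 6 cold mice were at 82.0 to 83.7 CPM. The groups overlapped. The log2 difference was -0.56 (SE 0.20, 95% interval -0.98 to -0.15) and missed the threshold (adjusted p = 0.121 from edgeR). DESeq2 called it (adjusted p = 0.0858), as did edgeR with only the BATdKO libraries (adjusted p = 0.0105), with library totals (adjusted p = 0.00937), without m1 or m3 of Cre- at 30°C or m1 of BATdKO at 8°C, and without m3 and m4 of Cre- at 30°C (adjusted p = 0.00577).

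At 8°C the 6 BATdKO mice had 95.3 ± 20.5 CPM of Rgs2 and the 6 Cre- mice 35.9 ± 5.99 CPM (SD, n = 6 each), with no overlap. The log2 fold change was 1.40 (SE 0.21, 95% interval 0.97 to 1.83, adjusted p = 0.000285 from edgeR), and it stayed called in all 24 fits without 1 mouse, with adjusted p up to 0.00132. At 30°C the difference was 0.18 (95% interval -0.23 to 0.60, adjusted p = 0.825). The test of the difference between these differences gave 1.21 (SE 0.29, 95% interval 0.62 to 1.80, unadjusted p = 0.000272), and its call depended on the tool and on a single library. It did not pass in edgeR (adjusted p = 0.126), and it passed in DESeq2 (adjusted p = 0.0202), with library totals (adjusted p = 0.0932), without m3 of Cre- at 30°C (adjusted p = 0.00149) and without m3 and m4 of that group (1.47, adjusted p = 0.000322). Without both m6 libraries at 30°C it was 1.13 (adjusted p = 0.158). Rgs2 is on chromosome 1, 143999338 to 144004161, minus strand, and no exon of another gene overlaps its exons in the GENCODE vM21 annotation.

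The median log2 fold change of the 8 members was 0.43 between temperatures in Cre- (-0.02 over all genes tested) and 0.17 in BATdKO (-0.0026 over all genes). Higher in the cold, called or not, were 7 members in Cre- and 5 in BATdKO, against 5741 and 6178 of all 12485 genes. Between genotypes the median of the members was -0.06 at 8°C (-6.08e-05 over all genes) and 0.22 at 30°C (-0.0099 over all genes). Scaling to library totals lowered the median of all genes by 0.179 between temperatures in Cre- and by 0.187 in BATdKO, and the share of called genes that were higher in the cold went from 60.8 to 13.3% and from 53.2 to 9.07%. Under that scaling the cold changes of Pde4d and Adra1a in Cre- and of Pde4d in BATdKO kept their direction and their call.

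The rest of the pathway was read from a list of 113 other genes, of which 74 were in the table and tested. Adra2a was not analysed here. Between temperatures in Cre- mice 18 of the 74 were called (24.3%, 14 higher and 4 lower in the cold) against 9.15% of all genes. In BATdKO mice 15 were called (20.3%, 10 higher and 5 lower) against 7.07% of all genes. Between genotypes at 8°C 2 were called (2.7%) against 1.82% of all genes. By edgeR 0 were called between genotypes at 30°C and 0 for the interaction. In these comparisons 11 and 9 of the 74 had an unadjusted p under 0.05, against 10.4% and 8.05% of all genes. Leaving out both m6 libraries at 30°C gave 11 called between genotypes at 30°C, 8 higher and 3 lower in BATdKO, and 1 for the interaction. Of all genes, 4% and 0.352% were called in these comparisons without both m6 libraries. The direction of the cold calls depended on the scaling. With library totals the calls were 13 higher and 16 lower in Cre- and 10 higher and 19 lower in BATdKO, and they included 17 of the 18 and all 15 of the reported genes, each in its reported direction.

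**Figure D3:**
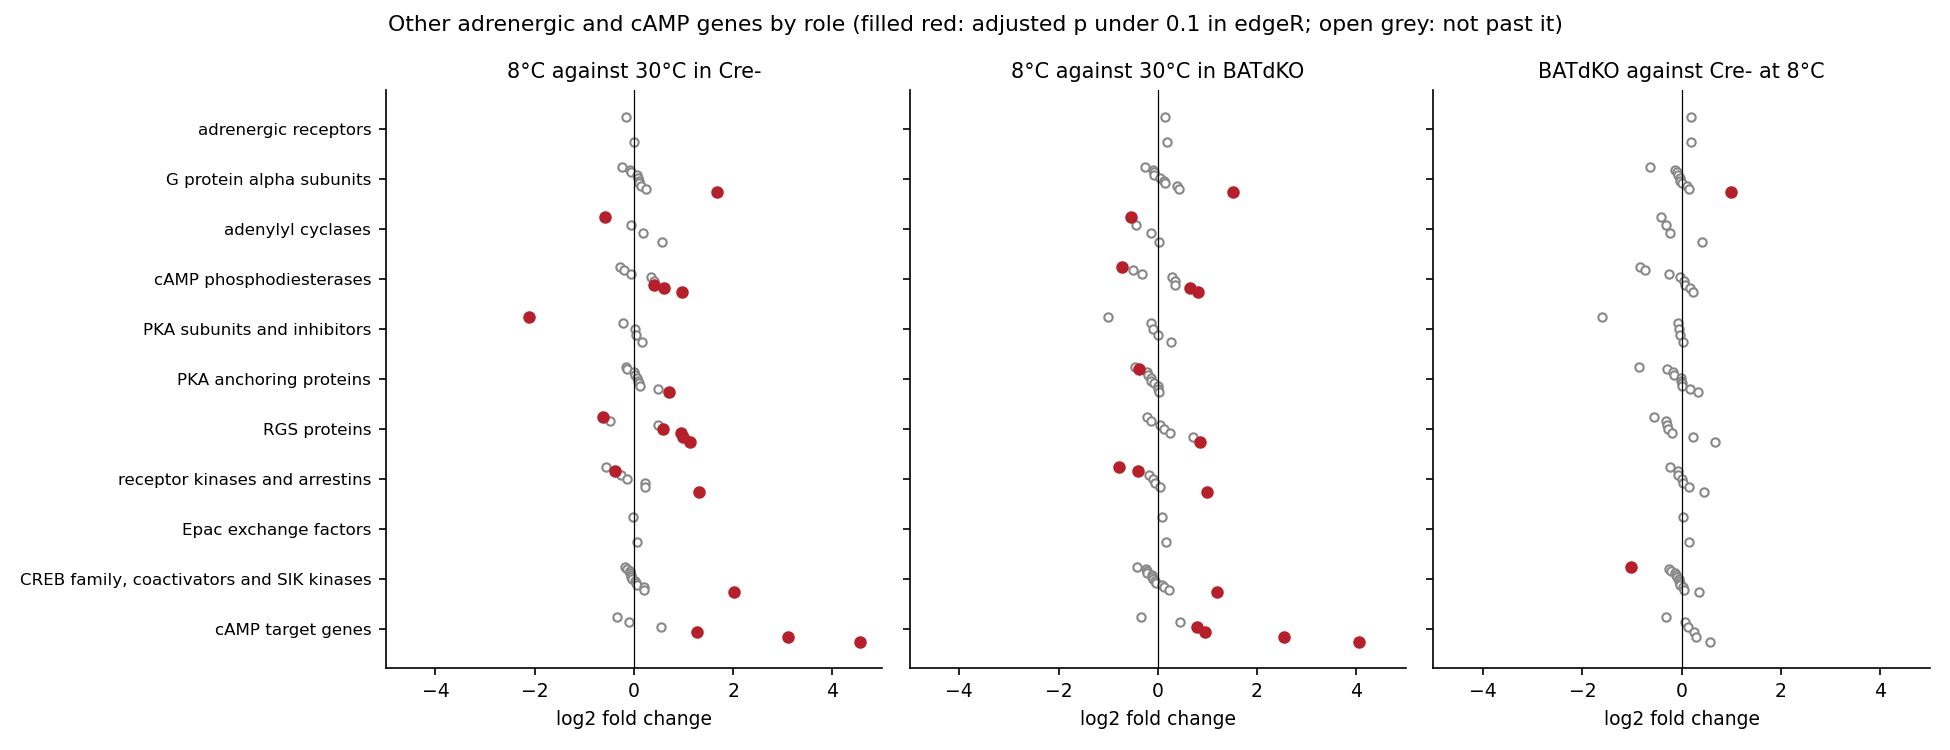
Log2 fold change (horizontal axis) of the 74 other adrenergic and cAMP genes, a point per gene, grouped by role (vertical axis), in 3 comparisons, red and filled where the adjusted p in edgeR was under 0.1. In both cold comparisons the targets of cAMP reach furthest to the right, up to 4.56 in Cre- and 4.05 in BATdKO, and only 2 genes are filled between genotypes at 8°C.

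Of 10 G protein alpha subunits tested, Gnas, which encodes the stimulatory subunit that couples beta receptors to adenylyl cyclase, was the one called in the cold. It rose from 3.03 ± 0.602 to 9.84 ± 3.02 CPM in Cre- (SD, n = 6 each), a log2 fold change of 1.67 (SE 0.26, adjusted p = 0.000112). In BATdKO it rose from 3.73 ± 1.05 to 11.0 ± 4.66 CPM (SD, n = 6 each), a log2 fold change of 1.52 (SE 0.26, adjusted p = 0.000477, both from edgeR). The groups did not overlap in Cre-, and in BATdKO the lowest cold mouse, at 3.91 CPM, lay within the warm range of 2.36 to 5.26 CPM. These Gnas levels are low, with 2 to 49 counts per warm Cre- library and 14 to 48 per warm BATdKO library. Overlap of its exons with those of other genes was not examined. Gnai1, an inhibitory subunit that restrains adenylyl cyclase, was higher in BATdKO at 8°C. Its levels there were 23.9 to 31.6 CPM, all above the Cre- levels of 10.7 to 17.8 CPM, with a log2 fold change of 1.00 (SE 0.18, adjusted p = 0.00287 from edgeR). At 30°C Gnai1 was at 0.50 (95% interval 0.12 to 0.88, adjusted p = 0.317), and the interaction was 0.50 (95% interval -0.03 to 1.02).

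Of 4 adenylyl cyclases tested, Adcy9 was lower in the cold in both genotypes, by -0.59 in Cre- and -0.54 in BATdKO on the log2 scale, and the other 3 were not called. Of 8 other phosphodiesterases, Pde7b, Pde4a and Pde8a were higher in the cold in Cre-, and in BATdKO Pde7b and Pde4a were higher and Pde1a lower. The calls of Pde8a and Pde1a were each lost in 7 of the 24 fits without 1 mouse, and further that of Pde8a with library totals and without m3 and m4 of Cre- at 30°C, and that of Pde1a without both m6 libraries. Pde7b, a cAMP-specific enzyme, rose from 1.37 to 3.29 CPM in warm Cre- mice to 3.84 to 6.27 CPM in cold ones (log2 fold change 0.96, SE 0.17, adjusted p = 0.000387), and from 1.74 to 3.63 CPM to 4.16 to 6.10 CPM in BATdKO (0.80, SE 0.17, adjusted p = 0.00397, both from edgeR). Its counts were low, at 1 to 33 per warm Cre- library and 10 to 37 per warm BATdKO library. Pde4a, of the same subfamily as Pde4d, rose by 0.60 in Cre- and 0.65 in BATdKO (adjusted p = 0.014 and 0.0108). Pde3a, the close relative of Pde3b, was not called, with 0.35 in Cre- (95% interval -0.23 to 0.93) and -0.50 in BATdKO (95% interval -1.15 to 0.16).

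Of 5 other PKA subunits and inhibitors, Pkia, an inhibitor of the catalytic subunit, was called lower in the cold in Cre- by its mean (-2.11 on the log2 scale, SE 0.71, adjusted p = 0.0787 from edgeR), and none was called in BATdKO. The call rested on 2 warm libraries, m3 at 41.4 CPM and m1 at 20.0 CPM, which also had the highest skeletal muscle shares of all libraries, and the medians ran the other way, with 1.31 CPM at 30°C and 2.67 CPM at 8°C. It was lost in 7 of the 24 fits without 1 mouse (adjusted p up to 0.457), m1 and m3 of the warm group among them, with DESeq2, with robust dispersion and without m3 and m4 of that group. Prkar1a, the RI alpha regulatory subunit, averaged 64.3 ± 6.53 CPM at 30°C and 71.5 ± 11.0 CPM at 8°C in Cre- (SD, n = 6 each), a log2 difference of 0.15 (95% interval -0.11 to 0.42). Of 10 PKA anchoring proteins, Akap12 was higher in the cold in Cre- (0.71) and Akap7 lower in BATdKO (-0.37). Of 7 other RGS proteins, Rgs4, Rgs5, Rgs7 and Rgs12 were higher in the cold in Cre- by 0.58 to 1.12 on the log2 scale and Rgs3 was lower by -0.62, while in BATdKO Rgs4 was called, at 0.85. Rgs2 thus moved in Cre- mice in the opposite direction to the 4 RGS genes that were higher, and in the same direction as Rgs3. The counts of Rgs4 and Rgs12 were low, at 0 to 34 and 1 to 17 per warm Cre- library. Of 7 receptor kinases and arrestins, Grk3 was higher (1.30 and 0.99) and Arrb1 lower (-0.38 and -0.39) in the cold in Cre- and BATdKO, and Grk4 was lower in BATdKO. The call of Rgs12 was lost with DESeq2, that of Rgs5 without m3 and m4 of Cre- at 30°C, and that of Rgs3 with robust dispersion and without both m6 libraries at 30°C. The calls of Rgs3 and Akap7 were each lost in 15 of the 24 fits without 1 mouse, that of Grk4 in 4, and that of Arrb1 in 4 in Cre- and 7 in BATdKO, where it was also lost without both m6 libraries. Adra1b and Adra2b, the other adrenergic receptors tested, and both Epac exchange factors were not called.

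**Figure D4:**
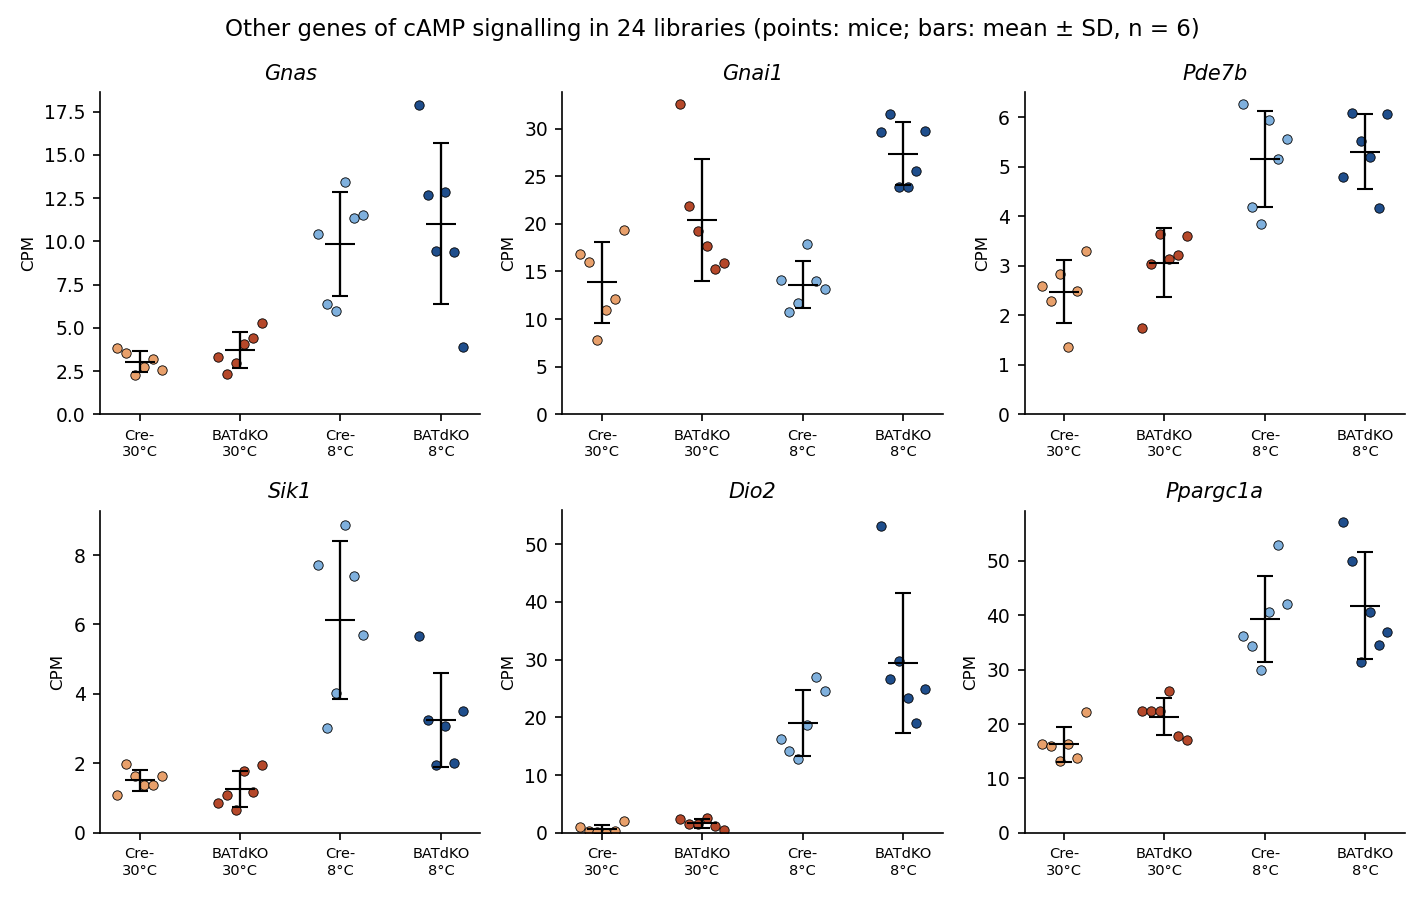
Level in CPM (vertical axis, from 0) of 6 other genes of cAMP signalling in the 4 groups, with a point per mouse and bars for the mean and SD of 6 mice. Gnai1 separates the 2 genotypes at 8°C, at 23.9 to 31.6 CPM against 10.7 to 17.8 CPM, while Dio2 separates the temperatures under both labels.

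Among 13 genes of the CREB family, its coactivators and the SIK kinases, Sik1 was the one called. Sik1 is a kinase that is itself induced by cAMP and restrains the CREB coactivators. It lay between 1.102 and 1.99 CPM in warm and between 3.01 and 8.87 CPM in cold Cre- mice, a log2 fold change of 2.01 (SE 0.27, adjusted p = 1.42e-05). In BATdKO it lay between 0.641 and 1.95 CPM in warm and between 1.96 and 5.66 CPM in cold mice, a log2 fold change of 1.20 (SE 0.30, adjusted p = 0.0199, both from edgeR). Between genotypes at 8°C it was lower in BATdKO by -1.03 (SE 0.25, adjusted p = 0.0383), with overlapping groups, a call that was lost without m4 of Cre- or without m3 or m5 of BATdKO at 8°C (adjusted p up to 0.125), and the interaction of -0.81 was not called (95% interval -1.67 to 0.05, adjusted p = 0.642). These are low levels, with 1 to 33 counts in the warm and BATdKO libraries and 18 to 82 in the cold Cre- libraries.

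Of 6 target genes of cAMP tested, 3 rose in the cold in Cre- and 4 in BATdKO. Dio2, the deiodinase that activates thyroid hormone in brown fat, rose from 0 to 2.06 CPM in warm Cre- mice to 12.9 to 27.0 CPM in cold ones (log2 fold change 4.56, SE 0.38, adjusted p = 1.4e-08) and from 0.451 to 2.63 CPM to 19.0 to 53.2 CPM in BATdKO (4.05, SE 0.33, adjusted p = 1.31e-08, both from edgeR). The warm counts of Dio2 were low, at 0 to 20 per Cre- library and 3 to 31 per BATdKO library, so its fold changes start from values near 0. Ucp1, the uncoupling protein of brown fat, lay between 28.9 and 548 CPM in warm Cre- and between 85 and 412 CPM in warm BATdKO mice. In the cold it lay between 968 and 2076 CPM in Cre- and between 1331 and 2029 CPM in BATdKO. Its log2 fold changes were 3.10 (SE 0.44) and 2.54 (SE 0.43). Ppargc1a, the coactivator that drives mitochondrial biogenesis, rose by 1.27 in Cre- and 0.95 in BATdKO (SE 0.16 and 0.15, adjusted p = 3.71e-06 and 0.00023 from edgeR). Between genotypes at 8°C none of the 3 was called, with log2 differences of 0.58 for Dio2 (95% interval 0.06 to 1.11), 0.13 for Ucp1 (95% interval -0.69 to 0.95) and 0.07 for Ppargc1a (95% interval -0.23 to 0.37).

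The genes whose levels followed each member most closely were sought by Pearson's r of log2 CPM over the 24 libraries among 8547 genes with a mean of at least 5 CPM. These values describe the libraries, which share group, depth and cell content, and the r within groups, from deviations from the group means, is given beside each. Rgs2 was most like Angptl4, an inhibitor of lipoprotein lipase (r = 0.933, within groups 0.806) followed by Fam13a (0.916, within groups 0.772). Prkar2b was most like the fatty acid transporter Cd36 (0.921, within groups 0.927), and Pde3b most like the triglyceride lipase Pnpla2 (0.912, within groups 0.929) and the lipid droplet protein Plin1 (0.894, within groups 0.886). Pde4d was most like the monocarboxylate transporter Slc16a1 (0.910, within groups 0.709) and, next but one, Ppargc1a (0.904, within groups 0.619), a lower value within groups than across them.

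Prkaca was most like Akt1 (0.903, within groups 0.861), Adra1a like the pyruvate dehydrogenase kinase Pdk4 (0.899, within groups 0.828), and Adrb1 like the glycerol-3-phosphate dehydrogenase Gpd2 (0.847, within groups 0.859). Adrb3 had the weakest closest gene, Pmp22 (0.779, within groups 0.679). Among the members themselves the highest r was that of Pde3b and Prkar2b (0.832, within groups 0.869), and the lowest that of Pde4d and Rgs2 (-0.399 over all libraries, 0.489 within groups), which moved in opposite directions with temperature. Rgs2 and Prkar2b were at 0.076 over all libraries and at 0.867 within groups, and their group means did not rank alike. In Cre- at 30°C, m3 had the lowest Rgs2 (42.8 CPM), Prkar2b (43.7 CPM) and Pde3b (47.4 CPM) of its group. The part of this library in the r within groups of these genes was not tested. Adrb3 was at 0.018 with Adra1a and at 0.030 with Pde4d.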

How the data were processed

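BAT RNA of 24 mice was sequenced as 3′ tags (QuantSeq FWD). The authors used BBDuk for trimming, STAR for alignment to GRCm38 and Rsubread for counting of the forward reads, and the deposited values are raw counts per gene. The annotation release, strand setting and low-count filter are not given in the sources used here. The study removed outliers that it does not name, and all 24 libraries were kept. Of 12615 identifiers, 12608 matched a symbol.

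The tests used edgeR 4.0.16 and limma 3.58.1 under R 4.3.3. filterByExpr removed 130 genes, leaving 12485. Totals per library ranged from 699703 to 11527643, and counting error is largest in the shallowest library. Standard errors are the log2 fold change over the root of the F statistic. Log2 CPM used a prior count of 2. Tested on simulated data for the genotype comparison at 8°C (12427 genes), edgeR called 185 of 200 genes changed by a log2 fold change of 1 (92.5%) and DESeq2 1.42.0 called 186 (93%), with 0 of wrong sign, and they also called 31 and 30 unchanged genes. The changed genes were drawn from those above a floor of mean count, and no other difference between groups was simulated. No replicate pair agreed within sampling noise. Alternatives were RLE scaling, library totals, other filters, robust dispersion, DESeq2, only the groups compared, and leaving out each mouse. Added settings, without both m6 libraries at 30°C and without m3 and m4 of Cre- at 30°C, were chosen after seeing the data.

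The members and all lists were chosen with earlier results of these data known. Named were all members, Gnas, Pde3a, Prkar1a, Ucp1, Ppargc1a and Dio2, up to 6 pathway genes of smallest p per comparison, and genes among the 3 most like each member, of which some are not reported here. Other called pathway genes, Gm45470 and S100b were named after their values were seen. Positions are from GENCODE vM21 and promoters from RefSeq.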

Additional observations from a re-analysis of the deposited data

Results flagged for a closer look

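In a group of 6 mice, a library was singled out when its gap to the nearest other mouse exceeded 0.625 of the range of the group (Dixon's test at the 95% level). Of the 64 groups tested, 8 met this, where chance would give about 1 in 20 independent groups. The groups are not independent, since all genes were read in the same 24 libraries, so an excess over chance was not measured. Of the 8 values, 4 belonged to m6 of Cre- at 30°C. This library had the highest Adra1a of its group (20.1 CPM, others 6.89 to 10.9), the highest Ucp1 (547.9 CPM, others 28.9 to 133), the highest Ppargc1a (22.2 CPM, others 13.1 to 16.4) and the highest Tbl1xr1 (38.6 CPM, others 16.4 to 24.6). Among BATdKO mice at 30°C, m6 had the lowest Tbl1x (39.7 CPM, others 53.4 to 59.9). Adrb1 was lowest in m6 of BATdKO at 8°C (9.78 CPM, others 15.3 to 16.8). Prkar1a was highest in m3 of Cre- at 8°C (92.7 CPM, others 63.2 to 73.1), and Dio2 was highest in m1 of BATdKO at 8°C (53.2 CPM, others 19.0 to 29.8). What sets these libraries apart was not tested.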

How the results depend on the processing

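Without 1 mouse, the number of members called ranged from 1 to 2 between genotypes at 8°C, 0 to 1 between genotypes at 30°C, 2 to 5 between temperatures in Cre-, 1 to 3 in BATdKO and 0 to 1 for the interaction, and the number of other pathway genes called from 1 to 5, 0 to 8, 14 to 18, 11 to 17 and 0 to 0. Without both m6 libraries at 30°C, 2 members and 11 pathway genes were called between genotypes at 30°C, 5 members in the cold in Cre-, 5 pathway genes between genotypes at 8°C and 1 for the interaction. In that setting 4%, 13.2%, 2.59% and 0.352% of all genes were called in these comparisons, in the same order. Without m3 and m4 of Cre- at 30°C, 4 pathway genes were called between genotypes at 8°C and 1 member for the interaction. The shares of all genes called were 2.09% and 0.0877%. Library totals gave 29 pathway genes in the cold in each genotype, 4 between genotypes at 8°C and 1 member for the interaction. DESeq2 gave 5 pathway genes between genotypes at 8°C and 1 member for the interaction. Between genotypes at 8°C, fitting only the groups compared gave 8 pathway genes, and robust dispersion gave 1 member. RLE scaling and both filters on low counts left every count of members and pathway genes within 1.5 times the reported one. The cause of these moves was not tested. Over all genes, DESeq2 called 92 between genotypes at 30°C and 51 for the interaction, against 0 and 12, and library totals called 3259 and 2812 in the cold in Cre- and BATdKO, against 1143 and 883. The share of calls at 8°C that were higher in BATdKO was 22.6% with library totals and 38.3% with TMM.

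Directions turned for uncalled values only. Without 1 mouse, Adrb1 ranged from -0.21 to 0.011, Adra1a from -0.10 to 0.069 and Pde4d from -0.20 to 0.0097 between genotypes at 8°C, Adrb3 from -0.33 to 0.18 at 30°C, and Adrb1 from -0.028 to 0.29 for the interaction. Between genotypes at 30°C, Adrb3 was 0.0083 without both m6 libraries, and Prkaca -0.026 and Rgs2 -0.080 without m3 and m4 of Cre-. Pde3b was -0.053 in the cold in BATdKO with library totals and 0.012 for the interaction without m3 and m4. Adrb1 in BATdKO passed the threshold without m1 at 30°C (adjusted p = 0.0722 from edgeR), and Adrb3 in BATdKO with library totals (adjusted p = 0.0663 from edgeR). No paired analysis was possible because the mouse numbers in the labels differ between groups and pair no mice.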

Other observations

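S100b, a calcium-binding protein of Schwann cells that brown adipocytes also make, was the only marker of the nerve and Schwann cell list of 7 genes that was in the table, so the sympathetic nerves that supply the receptors' ligand could not be followed by Th or Dbh here. It took 0.00253 to 0.00506% of the counts in Cre- mice at 8°C and 0.00083 to 0.00131% in BATdKO mice at 8°C, with no overlap. Its log2 fold change between genotypes at 8°C was -1.77 (SE 0.30, adjusted p = 0.00109 from edgeR), and between temperatures it was 1.71 in Cre- (SE 0.29, adjusted p = 0.000313) and 0.28 in BATdKO (SE 0.32, adjusted p = 0.724). The interaction was -1.43 (SE 0.43, adjusted p = 0.313). The gene was named after its values were seen.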
